A study of Mus musculus with 3 samples.

Results

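Isolated distal sites near genes were short stretches of open chromatin that lay over 1 kb and up to 10 kb from the nearest annotated transcript start and were not crowded by other distal sites. In embryonic mouse liver there were 4327 of them, which was 17.9% of the 24196 regions open in all 3 replicates and 49.1% of the 8810 regions that lay over 1 kb from any start. They were chosen from the shorter of the authors' peak lists of each replicate. Peaks that shared at least 1 base were joined into regions, and a region was kept where every replicate had a peak. Regions in a chain of 3 or more distal regions, joined by gaps of up to a little over 12 kb, the distance commonly used to stitch enhancers into super-enhancers, were left out, and starts came from the GENCODE annotation of mm10. These near-gene sites were set beside 3212 isolated far sites, which lay over 10 kb and up to 100 kb from a start, beside 734 clustered sites, which had the same distances as the near-gene sites but lay in a chain, and beside 15386 regions within 1 kb of a start. Where a peak in replicate 1 was not required, the count was 7537. A further 460 clustered sites over 10 kb away and 77 isolated sites over 100 kb away were not used for comparison.

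Open sites at such distances include enhancers, which are bound by transcription factors and raise the activity of a gene from outside its promoter, and insulator elements bound by CTCF, which help to set the borders of chromatin loops. A protein that sits on DNA shields the bases under it from DNase I, and this leaves a footprint, a short stretch with few cuts inside an open site. In red cell precursors the main factors of distal sites are GATA1, which binds variants of the word GATA, and TAL1, which binds an E-box beside it.

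The libraries were DNase-seq of whole liver from embryos of 13.5 days, a stage at which the organ makes red blood cells. All 3 libraries formed 1 group, strain C57BL/6N,129, labelled as HS2 HS3 deletion, HOM globin mutation. The label does not say whether the globin mutation is the deletion itself. HS2 and HS3 are known as enhancers of the β-globin locus control region. The labels number the libraries as biological replicates 1 to 3 and give all of them the same donor label, so the spread between them may in part be technical, and no unaltered library was analysed here.

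The sequences of 6 near-gene sites show what such a site looks like and which of its bases were protected in every replicate. They are the 6 strongest sites of at most 300 bases, outside UTRs, that have a footprint base shared by all replicates and lie at genes of blood cells. Capitals mark bases inside a footprint of all 3 replicates, and all sequences are the plus strand of GRCm38, the build of the files. The site at Klf1, an activator of β-globin and other red cell genes, covers chr8:84903081-84903340 and lies 1.153 kb downstream of the nearest start, in a coding exon. The site at Tal1, the bHLH partner of GATA1, covers chr4:115047821-115048040, 8.386 kb upstream of the start and between genes. The site at Runx1, a factor needed for the first blood stem cells, covers chr16:92698721-92698920 and lies in an intron, as does the site at Ank1 (chr8:23028001-23028200), the gene of ankyrin, which ties the red cell membrane to its skeleton. The site at Slc25a39, a mitochondrial carrier gene, covers chr11:102411821-102412000, and the site in an intron of Vwf, the von Willebrand factor gene of platelets and vessels, covers chr6:125573301-125573560.
Klf1: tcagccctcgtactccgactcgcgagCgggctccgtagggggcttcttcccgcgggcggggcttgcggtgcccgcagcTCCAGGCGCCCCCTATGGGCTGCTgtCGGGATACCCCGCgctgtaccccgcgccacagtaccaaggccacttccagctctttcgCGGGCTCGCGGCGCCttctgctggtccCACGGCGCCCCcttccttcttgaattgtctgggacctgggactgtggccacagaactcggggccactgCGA
Tal1: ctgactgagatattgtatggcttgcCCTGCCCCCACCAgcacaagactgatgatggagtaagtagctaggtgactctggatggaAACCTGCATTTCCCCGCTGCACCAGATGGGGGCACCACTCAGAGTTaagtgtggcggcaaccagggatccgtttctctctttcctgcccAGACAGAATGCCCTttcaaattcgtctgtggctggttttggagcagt
Runx1: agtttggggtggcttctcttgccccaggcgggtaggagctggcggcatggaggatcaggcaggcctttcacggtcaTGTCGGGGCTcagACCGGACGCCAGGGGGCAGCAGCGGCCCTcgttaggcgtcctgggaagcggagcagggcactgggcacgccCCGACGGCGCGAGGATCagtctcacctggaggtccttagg
Ank1: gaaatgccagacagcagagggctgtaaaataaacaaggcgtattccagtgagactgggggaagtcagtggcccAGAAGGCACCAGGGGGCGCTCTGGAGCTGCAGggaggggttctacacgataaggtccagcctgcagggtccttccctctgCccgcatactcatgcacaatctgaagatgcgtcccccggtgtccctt
Slc25a39: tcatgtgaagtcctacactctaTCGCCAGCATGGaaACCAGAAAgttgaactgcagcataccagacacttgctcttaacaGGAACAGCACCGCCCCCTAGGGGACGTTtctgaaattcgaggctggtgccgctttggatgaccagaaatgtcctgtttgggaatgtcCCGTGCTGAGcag
Vwf: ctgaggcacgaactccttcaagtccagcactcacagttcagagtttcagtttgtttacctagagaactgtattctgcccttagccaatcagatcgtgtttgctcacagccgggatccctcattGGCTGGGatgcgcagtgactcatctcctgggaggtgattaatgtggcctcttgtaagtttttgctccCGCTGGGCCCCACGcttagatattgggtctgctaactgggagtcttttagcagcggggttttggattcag

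The protected bases fell on CTCF words more often than on other searched words in these 6 sites. At Runx1, Ank1 and Slc25a39 a pattern of 14 positions known for CTCF, with 1 position free to differ, lay wholly within capitals, 14 of 14 bases each, while at Klf1 5 of its 14 bases were in capitals. At Tal1 the E-box CAGATG was wholly in capitals, 6 of 6 bases. At Vwf the word TGAGTCA, read by NF-E2 and AP-1, had 0 bases in capitals, and the shared footprints lay on either side of it. A further 3 sites were added after their values were seen, because they show both kinds of word in full. The site at Trpv4, a calcium channel gene, covers chr5:114667581-114667780 and was the strongest near-gene site with the full CTCF pattern, all 14 bases of which were protected. The sites at Gata1 itself (chrX:7971381-7971620) and at Alas2, the gene of the first enzyme of heme synthesis in red cells (chrX:150549661-150549960), hold the word AGATAA, on the minus strand at Alas2, and 0 of its 6 bases were in capitals at either site. The Gata1 site has 1, 4 and 7 footprints in replicates 1, 2 and 3, and the Alas2 site 4, 3 and 2. Capitals need all 3 replicates, so they do not show whether a single replicate covers the word.
Trpv4: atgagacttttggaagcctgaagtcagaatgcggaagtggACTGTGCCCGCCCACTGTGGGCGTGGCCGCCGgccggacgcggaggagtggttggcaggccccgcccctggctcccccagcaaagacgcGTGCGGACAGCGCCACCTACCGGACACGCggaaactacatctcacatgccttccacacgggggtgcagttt
Gata1: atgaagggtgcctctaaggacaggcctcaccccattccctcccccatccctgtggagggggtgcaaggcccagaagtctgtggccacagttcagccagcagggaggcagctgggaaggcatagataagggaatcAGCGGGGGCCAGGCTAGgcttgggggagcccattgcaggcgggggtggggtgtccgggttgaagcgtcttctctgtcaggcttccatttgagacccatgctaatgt
Alas2: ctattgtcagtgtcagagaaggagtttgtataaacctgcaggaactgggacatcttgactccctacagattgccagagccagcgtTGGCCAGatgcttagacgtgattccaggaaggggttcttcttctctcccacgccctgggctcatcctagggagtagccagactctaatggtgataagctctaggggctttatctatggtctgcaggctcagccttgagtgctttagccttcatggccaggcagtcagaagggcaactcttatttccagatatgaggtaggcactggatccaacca

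The shorter lists held 28209, 57314 and 41319 peaks in replicates 1, 2 and 3, and the footprint lists 126616, 194898 and 179791 footprints. The signal of a peak is the highest cut density inside it after the authors' scaling to read depth. Its low values were whole multiples of a fixed step, from which depths of 79.4, 119.5 and 132.7 M cuts (M, mega) follow if 1 step is 1 cut. No source used here states the depth. Replicate 2 thus had the most peaks and replicate 3 the highest implied depth. In a whole organ, fewer open cells of a type and less open chromatin in each cell cannot be told apart.

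Most near-gene sites lay inside or beside protein-coding genes. An intron of a protein-coding gene held 1855 sites (42.9%), and 1719 (39.7%) lay between genes. Introns of other genes held 6.12%, UTRs 4.21%, coding exons 3.56% and other exons 3.51%. Among the isolated far sites 38.4% lay in introns of protein-coding genes and 54.9% between genes. The distance to the nearest start had a median of 3730 bases, with 1013 sites at 1 to 2 kb, 1744 at 2 to 5 kb and 1570 at 5 to 10 kb. The sites lay downstream of the start in 51.5% and upstream in 48.5%, and the nearest start belonged to a protein-coding gene for 2881 sites (66.6%). For 683 sites inside a gene the nearest start was that of another gene, so the nearest start does not always name the host. Of all sites 3261 (75.4%) had no other distal site within the chain gap and 1066 had 1 neighbour.

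The limits of the class cut through a continuum. The site nearest to the inner limit, at Plekho2, lay 1001 bases from the start, with a signal of 2.48, 5.24 and 3.27 in replicates 1, 2 and 3, and a region at Mxi1 with 1.85, 1.15 and 1.46 lay 998 bases away and was left out. At the outer limit Ier5l at 9999 bases had 1.64, 3.23 and 2.03, and Acss1 at 10001 bases, left out, had 2.05, 2.15 and 2.21. The 149 sites just over 1 kb, up to 1100 bases, had median signals of 1.70, 2.12 and 1.86, and the 157 regions at 900 to 1000 bases had 1.95, 2.37 and 2.05. Sites in a chain of 2 had medians of 1.97, 2.39 and 1.97, and the 395 excluded sites in a chain of 3 had 2.15, 2.74 and 2.15.

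Near-gene sites were modestly open. Replicates 1, 2 and 3 gave them median signals of 1.66, 2.02 and 1.77, which averages 1.82 ± 0.186 (SD, n = 3). The middle 50% of the sites lay between 1.20 and 2.44 in replicate 1, between 1.34 and 3.13 in replicate 2 and between 1.24 and 2.58 in replicate 3. Signals over 5 were found at 168, 394 and 181 sites and signals over 10 at 21, 64 and 22 sites of replicates 1, 2 and 3. The lowest was 0.192 and the highest 99.3. Replicate 2 therefore had the largest number of strong near-gene sites, although the single strongest value was in replicate 3.

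In every replicate near-gene sites were more open than isolated far sites and less open than clustered sites and regions at starts. The median signal of far sites was 1.31, 1.60 and 1.42 in replicates 1, 2 and 3, and the near-gene median was 0.34 ± 0.012 higher on the log2 scale (SD, n = 3), or 1.26-fold. With the upper 50% of each shorter list by signal that log2 difference was 0.066. Clustered sites had medians of 2.40, 3.08 and 2.38, and the near-gene median was 0.697-fold theirs (log2 difference -0.52 ± 0.089). Regions within 1 kb of a start had 3.44, 4.11 and 3.40, and the near-gene median was 0.499-fold theirs (log2 difference -1.003 ± 0.056). All 3 within-replicate differences had the same sign against each class. These differences carry no test, because the peak lists that chose the sites rest on the same cut density, and the same holds for width and for the bases that pass the FDR limit. Peaks of near-gene sites had a mean width of 184, 218 and 222 bases, a difference of 7.92 ± 1.48 bases from far sites, -35.4 ± 5.06 from clustered sites and -91.6 ± 25.3 from starts (SD, n = 3). Of the 1000 bases around the middle of a near-gene site a median of 286, 444 and 354 passed the authors' FDR limit of 0.05. The medians were 274, 417.5 and 325 bases at far sites, 464.5, 680 and 577.5 at clustered sites and 778, 905 and 850 at starts.

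**Figure D1:**
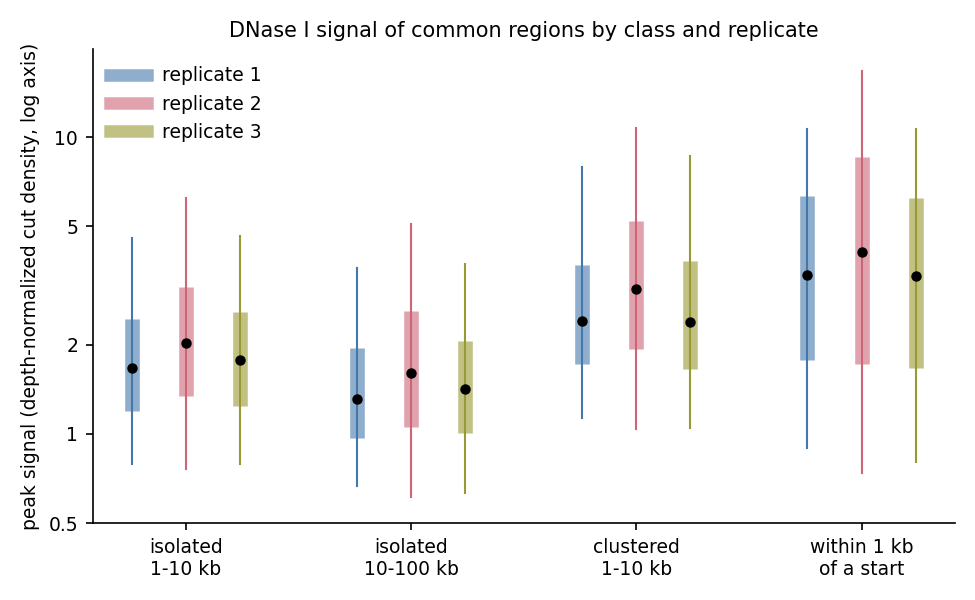
Peak signal (depth-normalized cut density, log axis) of near-gene sites (isolated, 1 to 10 kb), isolated far sites, clustered sites and regions within 1 kb of a start in each of the 3 replicates, with points for medians, thick bars for the middle 50% and thin lines for the middle 90% of sites. The near-gene medians of 1.66, 2.02 and 1.77 lie above the far medians of 1.31, 1.60 and 1.42 in every replicate and below the other classes.

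The 15 strongest near-gene sites were mostly CpG-rich, and a few of them lie in sequence that occurs more than once in the genome. The highest signal, at Lars2, the gene of mitochondrial leucyl-tRNA synthetase, was 93.4, 79.1 and 99.3, and the next, in an intron of Il31ra, a cytokine receptor gene, was 51.8, 42.7 and 56.0. Of the 32-base words of these sites only 43.2% at Lars2 and 42.6% at Il31ra occur once in the genome, so their signals are uncertain. The next by signal, at AC154187.1 and 2310047D07Rik, have 57.4% and 79.9%, and at the other 11 of the 15 all words occur once. Such sites were rare. Under 50% of the words occurred once at 45 near-gene sites, and 89.8% of the near-gene sites had no repeated word, against 90.3% of far and 78.7% of clustered sites. Without the 45 sites the medians were 1.66, 2.03 and 1.78.

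Among the 15 sites with the highest mean signal, 12 were CpG-rich, against 13.2% of all near-gene sites. In the whole region 7 held the SP word GGGCGGG, against 11.0% of all near-gene sites. The GATA word AGATAA was in 0 of them, against 16.0%, and with 15 sites that count says little. Below Lars2 and Il31ra the mean signals were 18.2 or lower. A site 6.277 kb upstream of Trappc9, a gene of a vesicle tethering complex, had 12.9, 23.7 and 12.8 in replicates 1, 2 and 3, and the site 1.291 kb upstream of Cpeb4, a regulator of translation, had 10.6, 19.6 and 10.7. Both were clearly higher in replicate 2 than in the other replicates. The site in a coding exon of Angptl6 had 13.2, 17.7 and 13.1, and the site in an intron of Mxi1, an antagonist of MYC, had 11.0, 17.4 and 10.8. The Trpv4 site printed above had 12.0, 16.1 and 13.2, a mean of 13.8 ± 2.08 (SD, n = 3). The remaining 8 of the 15 had means between 12.8 and 18.2.

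Nearly every near-gene site held a footprint. In replicates 1, 2 and 3 the share was 97.9%, 98.2% and 98.6%, and 4163 sites (96.2%) had one in all 3 replicates, against 90.7% of all common regions. A site held a median of 3 footprints in each replicate, with means of 2.86, 3.37 and 3.36 and maxima of 18, 21 and 23. No footprint was called at 90, 78 and 60 sites of the 3 replicates, and 16 sites had none in any. At 3596 sites (83.1%) at least 1 base lay in a footprint of every replicate.

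The share with a footprint was higher at near-gene sites than at starts in every replicate and did not differ in a uniform direction from far sites. It was 92.5%, 90.8% and 93.2% at starts, a difference of 6.08 ± 1.11 percentage points (SD, n = 3, exact sign-change test over replicates, two-sided p = 0.25). That is the smallest p that 3 replicates can give, so no such test can pass 0.05. Footprints rest on cuts of the same libraries as the peaks, so the test is not independent of how the sites were chosen. With the upper 50% of each list by signal the difference was 1.36 points, and within groups of like signal 12.2 points. Clustered sites had 96.7%, 97.0% and 97.3%, which was 1.24 ± 0.084 points lower than near-gene sites (exact p = 0.25), but with the longer peak lists the difference was -0.584 points, and without replicate 1 or 2 it was 2.17 or 2.61 points. Far sites had 97.2%, 98.9% and 98.8%, and the near-gene share was 0.69 points higher in replicate 1 and lower in both others. The mean difference was -0.10 ± 0.73 (exact p = 0.75), smaller than the spread between replicates. The number of footprints per site ran the other way against starts and clustered sites. The near-gene mean differed by -1.66 ± 0.097 from starts, -0.57 ± 0.060 from clustered sites and 0.16 ± 0.022 from far sites (SD, n = 3). Per 100 bases the difference from starts was -0.070 ± 0.060 footprints and from clustered sites 0.0022 ± 0.038.

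Among the 27 patterns searched, those of CTCF stood furthest in percentage points above their backwards controls at near-gene sites, though that control says little for CTCF. In the 200 bases around the middle of the site, on both strands, the full CTCF pattern was found at 1060 sites, 24.5% (95% exact binomial interval 23.2% to 25.8%, for counting error only), against 11.2% of all 24196 common regions. It was in 26.99% of far sites, 14.7% of clustered sites and 3.93% of regions at starts. Read backwards, as a control for base content, it was in 0.0231% of near-gene sites, but this control says little. The CTCF words printed wholly in capitals above hold GGC, whose reversed letters hold a CpG. CpG was scarce at near-gene sites, with a median ratio of observed to expected of 0.301. With 1 position free the CTCF pattern was in 51.5% of near-gene sites and 1.09% of them backwards, against 26.5% of all common regions.

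The words of GATA1 and TAL1 were less frequent than the full CTCF pattern, except where the flanks of GATA were left free. The GATA word AGATAA was in 554 near-gene sites, 12.8% (interval 11.8% to 13.8%), against 4.88% backwards and 7.63% of all common regions. It was in 14.8% of far sites, 16.5% of clustered sites and 3.93% of regions at starts. With free flanks the GATA word was in 29.9% of near-gene sites and 16.3% backwards, against 18.7% of all common regions. The short, loose MYB word was in 26.5%, below its 33.5% backwards. The E-box CAGCTG was in 16.3% of near-gene sites, and its control of 0.555% says little, since the reversed letters hold a CpG. CAGATG, the E-box that TAL1 prefers, was in 16.3% and in 5.13% backwards. A composite of CTG and GATAA set 8 bases apart, known for TAL1 with GATA1, was in 92 sites (2.13%), against 1.12% of all common regions. TGAGTCA was in 248 sites (5.73%), against 2.98% backwards and 3.25% of all common regions. GGGCGGG, a word of SP factors at CpG-rich promoters, was in 9.31% of near-gene sites and 39.5% of regions at starts, and it reads the same backwards, so it has no such control.

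**Figure D2:**
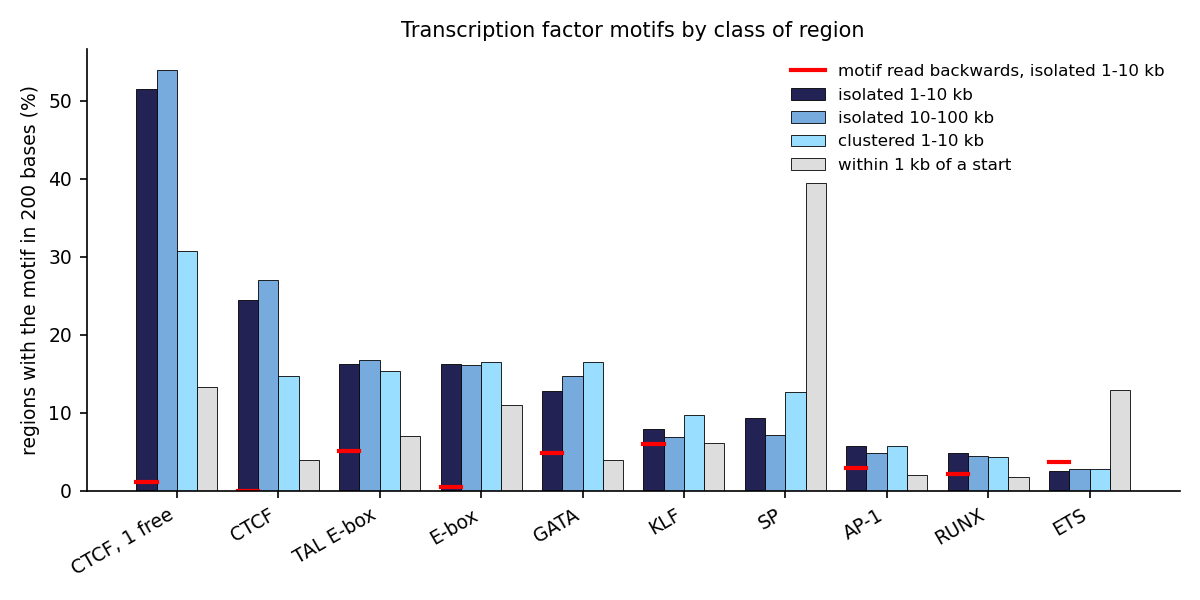
Share of sites (percent) with each word in the 200 bases around the middle, for near-gene sites, isolated far sites, clustered sites and regions within 1 kb of a start, with red lines for the word read backwards in near-gene sites (none for SP, whose word is its own reverse). GATA is the word AGATAA, and the AP-1 and SP words are those named in the text. The red lines say little for CTCF and the E-box CAGCTG, whose reversed letters hold a CpG. CTCF reaches 24.5% of near-gene sites and 3.93% of regions at starts, while the SP word reaches 9.31% and 39.5%.

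CTCF words lay under a footprint almost without exception, and GATA words seldom did. Of the 1080 near-gene sites that held the full CTCF pattern anywhere in the region, 95.1%, 98.4% and 98.5% had a footprint overlapping it in replicates 1, 2 and 3. Of the 693 sites with AGATAA 17.3%, 24.2% and 22.1% had one over it, and of the 252 sites with the word backwards 15.7% did on average. The CTCF share was 76.1 ± 1.82 points above the GATA share (SD, n = 3, exact sign-change test, two-sided p = 0.25). With 1 position free the CTCF pattern lay under a footprint at 92.5%, 96.6% and 96.4% of 2296 sites, and read backwards at a mean of 48.5% of 57 sites. The words differ in length, 14 positions against 6 bases, and the part of length in these shares was not tested.

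The other words were covered less often than those of CTCF. SP words lay under a footprint at 52.6%, 65.9% and 63.6% of 475 sites, and CAGATG at 30.2%, 32.5% and 32.3% of 845 sites, against 14.1% for the word backwards. TGAGTCA was covered at 29.6%, 33.2% and 34.5% of 304 sites, against 14.4% backwards, and the composite of TAL1 with GATA1 at 33.6% ± 5.53 (SD, n = 3) of 110 sites. CACACCC, the word of KLF factors, was covered at 28.7%, 37.7% and 32.2% of 401 sites, but its backwards control stood at 38.7%. CAGATG and TGAGTCA thus stood above the mean of their controls in every replicate, AGATAA did so by a few points, and CACACCC lay below. In the other classes CAGATG was covered at a mean of 31.1% of far sites, 27.6% of clustered sites and 21.7% of regions at starts that held it. Its backwards means there were 16.9%, 22.4% and 13.7%. How many of the covered CAGATG words overlap a CTCF word was not tested. Words covered less often than AGATAA on average were those of FOXA (11.8%), homeodomain factors (15.7%), STAT (18.5%), PU.1 (19.01%), MEIS (19.5%), HNF4 (20.2%) and nuclear receptors (20.4%).

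**Figure D3:**
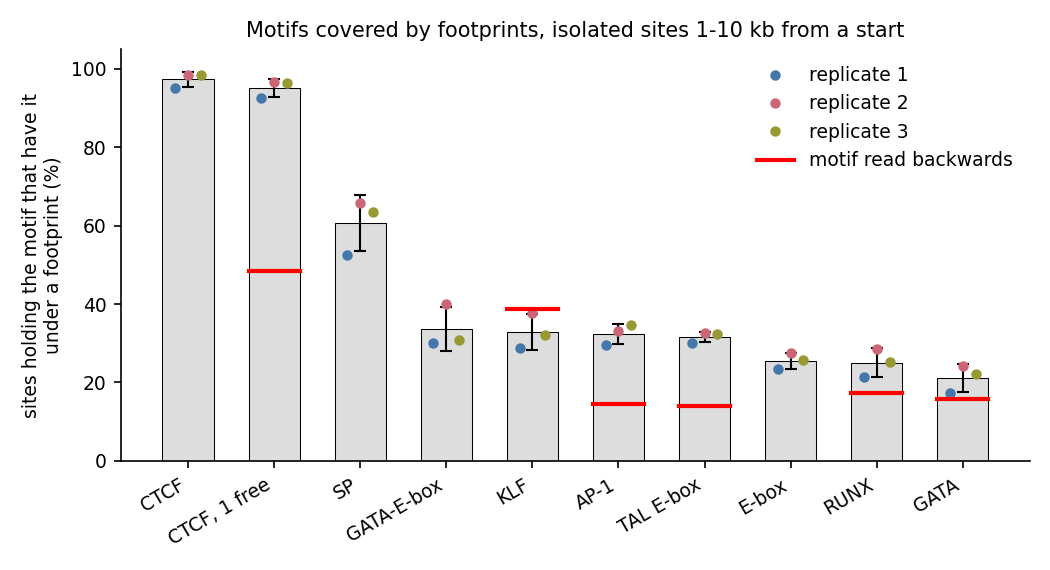
Share of near-gene sites holding a word (percent) in which a footprint of the same replicate overlaps it, with bars for the mean, error bars for the SD over 3 replicates, 1 point per replicate, and red lines for the word read backwards where at least 50 sites held it. The CTCF points lie at 95.1% or above, and those of AGATAA between 17.3% and 24.2%, beside a control of 15.7%.

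As a share of all near-gene sites, a CTCF word under a footprint was found at 23.7%, 24.6% and 24.6%. The difference was -2.20 ± 0.129 points from far sites, 9.45 ± 0.378 points from clustered sites and 20.01 ± 0.429 points from starts (SD, n = 3, exact sign-change test, p = 0.25 for each). For AGATAA the differences were -0.96 ± 0.462, -1.73 ± 0.558 and 2.16 ± 0.323 points (exact p = 0.25 for each). All 3 replicates had the same direction in each of these comparisons. Some sizes moved with the peak list. With the longer lists the CTCF difference from far sites was -1.16 points, and with the upper 50% by signal the AGATAA difference from clustered sites was -0.369 points. Without replicate 1 the AGATAA differences from far and clustered sites were -0.577 and -1.10 points.

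The replicates differed at sites with a GATA word. At the 489 near-gene sites with AGATAA and no CTCF pattern the median signal was 2.61 in replicate 2, against 1.61 in replicate 1 and 1.60 in replicate 3. At the 995 sites with the CTCF pattern and no AGATAA it was 1.93 in replicate 2, against 1.71 and 1.91. The median log2 ratio of replicate 2 to replicate 1 was 0.62 at GATA sites, 0.12 at CTCF sites and 0.21 at the 2778 sites with neither, and that of replicate 2 to replicate 3 was 0.67, -0.01 and 0.17. Replicate 2 had the highest signal at 82.0% of GATA sites, 43.1% of CTCF sites and 56.6% of sites with neither. Over all near-gene sites it was highest at 2434 (56.3%), below the 60.7% over all common regions. These are ratios between single libraries over sites, which are not replicates, so they carry no test.

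The pattern was graded. When the sites were ordered by the log2 ratio of replicate 2 to the mean of the other 2 replicates and cut into 5 groups of equal size, the share with AGATAA was 4.85% in the lowest group, 7.17%, 7.75% and 12.7% in the next ones and 31.5% in the highest. The share with the CTCF pattern ran the other way, with 33.9%, 30.5% and 29.7% in the 3 lowest groups and 8.31% in the highest. The median ratio of these groups on the log2 scale ran from -0.32 to 0.82. Within 4 equal groups by replicate 1 signal, the median log2 ratio of replicate 2 to replicate 1 at GATA sites exceeded that at CTCF sites by 0.45, 0.49, 0.55 and 0.53, from weakest to strongest. The same split was found at far sites, with 0.64 at 419 GATA sites and 0.09 at 811 CTCF sites. It was also found at starts, with 0.44 and 0.14. Regions with AGATAA only backwards and no CTCF pattern had 0.25 at near-gene sites, 0.27 at far sites and 0.49 at starts. At starts the raised ratio was thus not particular to AGATAA. Pearson's r of the log2 signals across the 4327 sites was 0.926 between replicates 1 and 3, 0.864 between 2 and 3 and 0.855 between 1 and 2. These are correlations over sites within 1 genome, and all sites of a library share its depth.

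**Figure D4:**
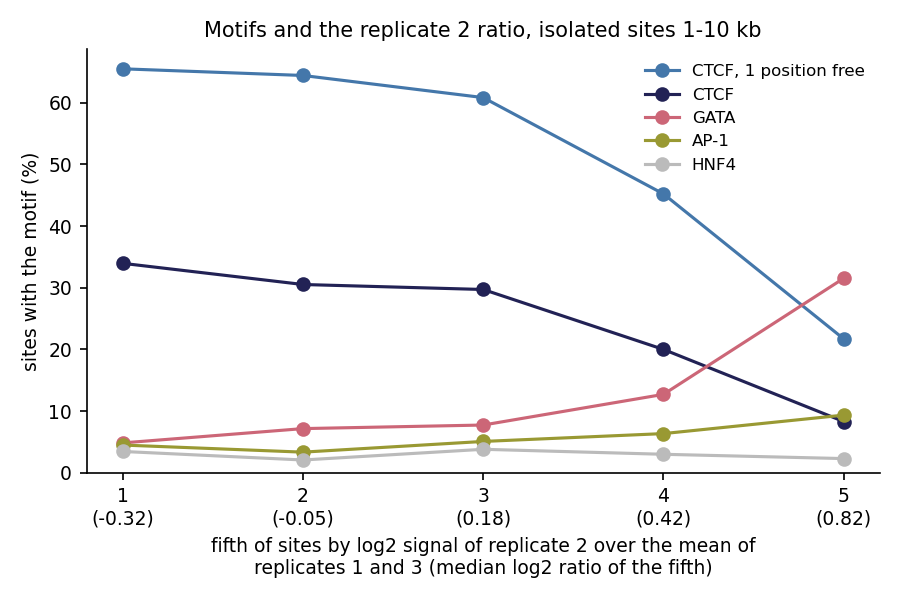
Share of near-gene sites with a word (percent) in 5 equal groups of the sites ordered by the log2 ratio of replicate 2 to the mean of replicates 1 and 3, with the median ratio of each group under the axis. GATA stands for the word AGATAA, whose share goes up to 31.5% in the highest group, while that of the CTCF pattern is 33.9% in the lowest and 8.31% in the highest.

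Single sites with extreme ratios, which the ratio itself chose, are given as a description. The highest ratio was at C330018D20Rik, where the signal was 5.13 in replicate 2, against 1.07 in replicate 1 and 1.50 in replicate 3. Reln, the reelin gene of stellate cells and neurons, had 8.87 in replicate 2, against 1.92 and 2.78, at a site 3.779 kb upstream of its start. Of the 5 sites with the highest ratio 4 held AGATAA in the region, against 16.0% of all near-gene sites, and 0 held a CTCF pattern, even with 1 position free. Of the 5 with the lowest ratio 3 held the CTCF pattern with 1 position free, close to the 53.1% of all near-gene sites, and 0 held AGATAA. The strongest of them, at Pisd-ps2, held neither word, 82.2% of its words occur once in the genome, and it had 0.954 in replicate 2, against 2.83 in replicate 1 and 1.80 in replicate 3.

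Near-gene sites were common at genes of red cells. Of 88 genes in 4 lists of red cell genes 34 were the nearest start of at least 1 near-gene site, with 45 sites in all, whereas 11.4% of all 21951 protein-coding genes were. By list these were 8 of 20 erythroid transcription factors, 15 of 32 membrane and effector genes, 10 of 26 genes of heme and iron, and 1 of 10 globin genes. The median signals of the 45 sites were 2.28 in replicate 1, 3.86 in replicate 2 and 2.18 in replicate 3. Replicate 2 was the highest at 39 of the 45, against 56.3% of all near-gene sites. AGATAA was in 15 (33.3%), against 12.8% of all near-gene sites, and the CTCF pattern in 1 (2.22%), against 24.5%. The lists were chosen with results of these data known, so the counts are descriptions.

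Among the transcription factor genes the sites differed in strength and in how alike the replicates were. The Klf1 site had 6.84, 8.11 and 7.53 in replicates 1, 2 and 3, a mean of 7.49 ± 0.634 (SD, n = 3), and the Tal1 site 6.09, 6.82 and 5.72, a mean of 6.21 ± 0.561. Both were close in all replicates and above the promoter signal of their own gene, which was 2.29, 3.20 and 2.55 at Klf1 and 6.39, 5.85 and 5.50 at Tal1, except for Tal1 in replicate 1. The site 3.471 kb upstream of a start of Gata1, the master regulator of red cells, had 4.62 in replicate 2, against 2.55 and 2.48. Zfpm1, whose product FOG1 is a partner of GATA1, had 5.52, 6.01 and 4.27 in an intron, and Gfi1b, a repressor needed for red cells and platelets, had 2.65, 4.10 and 2.54. Gfi1b was the only gene of this list with a near-gene site whose promoter was not open in all 3 replicates. Sox6, a repressor of embryonic globin genes in the mouse, and Myb, a factor of dividing progenitors, had 2 weak sites each, with means between 1.34 and 1.82, of which those of Myb were not highest in replicate 2, and Bach1, a repressor that senses heme, had 1 of 1.29.

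The genes of the red cell membrane and its skeleton held the largest number of sites, 22 at 15 genes. Epb41, the gene of protein 4.1, had 3 of them, and the strongest, 1.46 kb upstream, had 7.02, 10.8 and 6.01 in replicates 1, 2 and 3. Ank1 also had 3, and its strongest, printed above with a protected CTCF word, had 5.86, 5.78 and 5.59, a mean of 5.74 ± 0.138 (SD, n = 3). Its second, without a word of either kind, had 6.90 in replicate 2, against 3.29 and 2.89. Its remaining site, which holds AGATAA, had 3.42 in replicate 2, against 4.10 and 3.31. That site (chr8:23028241-23028855) lies right beside the strongest one and forms a chain of 2 with it. Within 1 gene the replicates were thus alike at the CTCF site, replicate 2 was well above the others at the second site, and it lay between them at the last. In introns, Tspan33 (a tetraspanin gene) had 7.45 in replicate 2, against 4.32 and 3.77, Rhd (a blood group antigen gene) 6.53, against 4.22 and 3.78, and Dmtn (dematin, which bundles actin) 6.13, against 3.84 and 3.51. Car2, the gene of a carbonic anhydrase, had 3.86 in replicate 2, against 1.54 and 1.92, and Bpgm, whose enzyme tunes the oxygen affinity of hemoglobin, 3.45, against 1.71 and 1.79. Besides 2 sites of Ank1, those not highest in replicate 2 were at Xpo7, a nuclear export receptor gene, with 1.45 in replicate 2, against 2.19 and 2.25, and at Cited2 (its stronger site, a co-regulator gene), with 1.88, against 1.44 and 1.93. The Cited2 site holds the only full CTCF pattern among the 45 sites.

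All 12 sites at genes of heme and iron were highest in replicate 2, against 56.3% of all near-gene sites. The widest gap was at Abcb10, a mitochondrial transporter gene needed for heme synthesis. A site 5.579 kb upstream of its start, in an intron of Gm20388, had 6.31 in replicate 2, against 2.28 in replicate 1 and 2.09 in replicate 3. Alas2 had 3.60, against 1.50 and 1.52, and Fech, whose enzyme puts iron into heme, had 5.52, against 2.89 and 2.46. Slc25a39 had 6.49, against 4.83 and 4.95, Slc11a2, an iron importer gene, 6.65, against 4.27 and 3.83, and Fth1, the ferritin heavy chain gene, 5.21, against 3.44 and 3.05. Only 72.8% of the words of the Fth1 site occur once, so its signal is uncertain. At Alas2 no replicate had a promoter peak in its shorter list, and its near-gene site lay 2.202 kb downstream of a start, in an intron. The remaining sites, at Slc25a38, Steap3, Blvrb, Aco1 (2 sites) and a second Abcb10 site, had means between 1.37 and 3.35. The only near-gene site at a globin gene lay 1.25 kb downstream of Hba-a1, an adult α-globin gene, with 6.78 in replicate 2, against 4.49 and 3.71. Of its 32-base words 63.9% occur once in the genome, so its signal is uncertain.

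**Figure D5:**
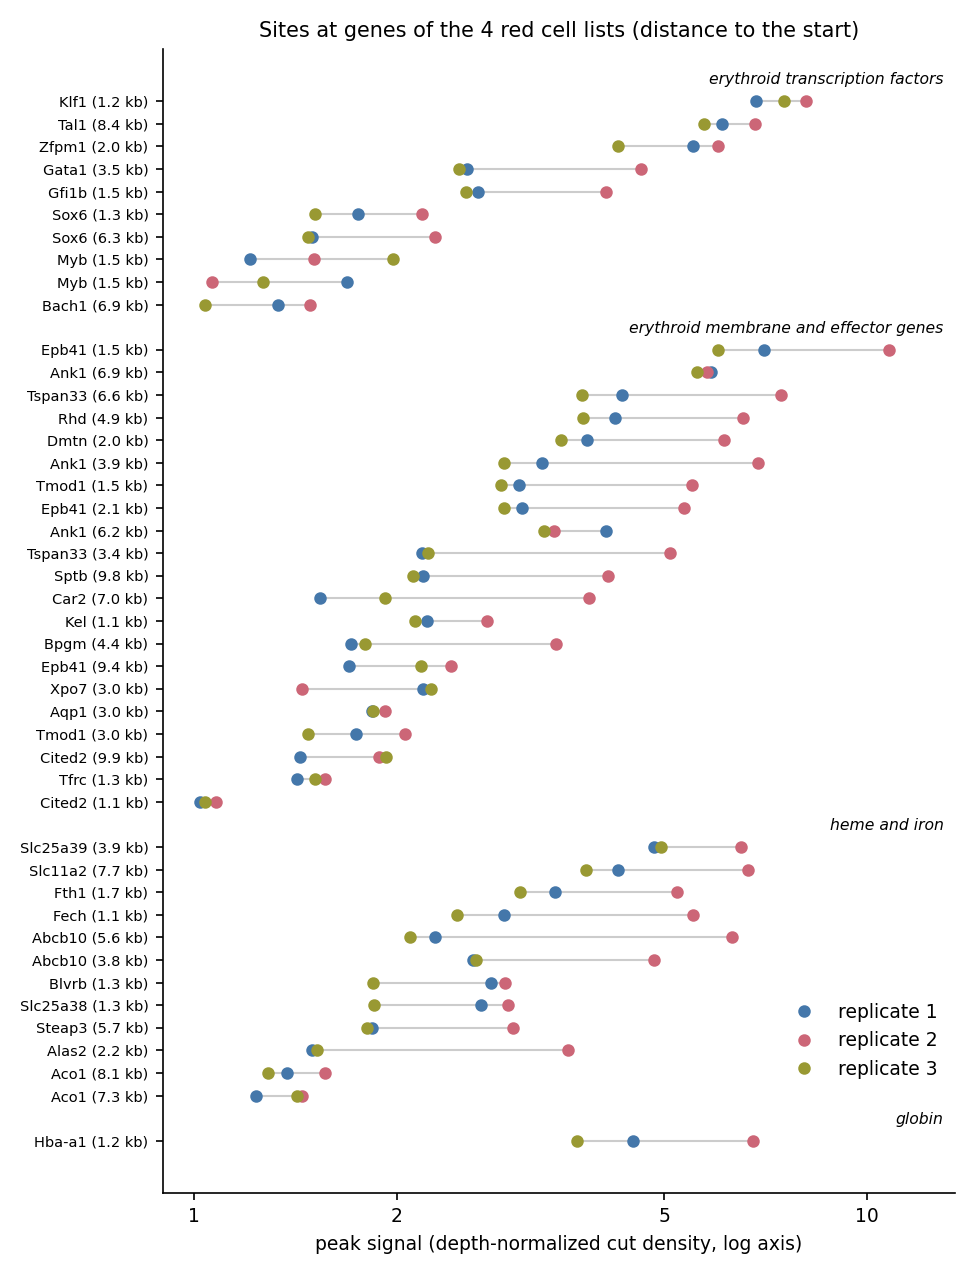
Signal of 44 of the 45 near-gene sites at red cell genes in the 3 replicates on a log axis, grouped by list. Replicate 2 is the highest point at 38 of the 44 sites shown, against 56.3% of all near-gene sites. The sites at Klf1, Tal1 and the strongest site at Ank1 have 3 points close together.

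Genes of other blood cells held near-gene sites less often than the factor, membrane and heme lists, but not always less often than the 11.4% of all protein-coding genes. Of 17 blood stem and progenitor genes 4 (23.5%) had one, with 5 sites, and of 17 megakaryocyte genes 4 (23.5%), with 5 sites. The Runx1 site printed above had 5.96, 6.91 and 6.31 in replicates 1, 2 and 3, and a second, in another intron, had 1.89, 3.47 and 2.18. Spi1, the gene of PU.1, had 3.34, 4.25 and 4.38 at a site with the CTCF pattern with 1 position free, although its promoter was not open in all 3 replicates. The Vwf site had 7.999 in replicate 2, against 4.50 and 4.25, and the site at Tubb1, a tubulin gene of platelets, had 5.58, against 2.00 and 2.89, although it holds the full CTCF pattern and no AGATAA. None of 16 macrophage genes had a site, and 2 of 12 genes of the neutrophil lineage (16.7%) did, Cebpe with 3.84, 5.82 and 3.40 and Prtn3 with 2.28, 1.98 and 2.40.

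Liver and vessel genes held sites about as often as protein-coding genes in general, and those sites were weak. Of 28 hepatoblast genes 3 (10.7%) had one. Apoe, a lipid carrier gene, had 1.70, 1.77 and 1.39 in replicates 1, 2 and 3, Apoa1 1.31, 1.54 and 1.49, and Foxa2, a factor that opens liver chromatin, 1.31, 1.20 and 1.26. Of 14 endothelial genes 2 (14.3%) had one, Pecam1 with 1.31, 1.18 and 1.06 and Cdh5 with 0.857, 0.879 and 0.784. The lymphoid list had sites at 2 of 19 genes, the cell division list at 3 of 19, the mesenchymal list at 1 of 12 (Reln), the muscle list at 1 of 12 (Tnnt2) and the neuron list at 4 of 12 (33.3%). The 5 sites of the neuron list included Slc17a7, a glutamate transporter gene, with 3.62, 2.12 and 3.23, and Gfap, an astrocyte filament gene, with 2.62, 3.61 and 2.71, and both held the full CTCF pattern. As a check of the tissue label, promoters were open in all 3 replicates at 4 of 28 hepatoblast genes. This count depends on the rule of 3 replicates. Some of the other hepatoblast genes had a weak promoter peak in replicate 2 alone, such as Apoe with 1.38 and Hnf4a with 0.870. Others, such as Alb and Afp, had none in any replicate. By the same rule promoters were open at 19 of 20 erythroid transcription factors and 29 of 32 membrane and effector genes. They were also open at 24 of 26 genes of heme and iron and 4 of 10 globin genes. The share over all protein-coding genes was 50.9%. The cell division list had 19 of 19, so a high share was not particular to red cell genes. The part of cell composition in the signals was not tested.

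The genes nearest to these sites had open promoters more often than genes in general. The sites had 3805 nearest genes of any kind, of which 3325 had 1 site, 442 had 2, 34 had 3 and 4 had 4. Of the 2495 protein-coding genes among them 1647 (66.01%) had a common region within 500 bases of a start, against 50.9% of all protein-coding genes. The 1916 sites at genes with an open promoter had median signals of 1.76, 2.23 and 1.86, and the 965 sites at genes whose promoter was not open had 1.60, 1.85 and 1.73. Sites of the first kind held AGATAA in 15.2% and the CTCF pattern in 21.5%, and sites of the second kind in 10.1% and 28.8%. Among the 4 genes with 4 sites were Csk, a kinase gene that restrains Src kinases, and Col15a1, a collagen gene. At Csk 1 site had 6.07, 7.17 and 6.05 and the other 3 had means between 1.69 and 1.80.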

How the data were processed

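DNase-seq libraries of 3 biological replicates of 1 group were used, numbered as in the labels. Peaks, footprints and FDR stretches were made by the authors per sample, not pooled, from filtered alignments to mm10, per the deposited notes beside the files. Which aligner and callers made them is not given in the sources used here. Peak signal, as the authors deposited it, is a depth-normalized cut density. All signals under 2 (100%) came in whole steps of 1 size per replicate, within 0.02 steps, and the depth implied by the step limits the precision of weak sites. The FDR that the authors deposited per stretch is a q-value type of measure, listed only below 0.05, and every deposited footprint carries a q-value of 0.01, so footprints cannot be ranked.

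Peaks of the shorter lists were joined with Python 3.11.15, pandas 2.3.3 and numpy 2.4.6, starts came from GENCODE M21, and sequence came from GRCm38.p6 in RefSeq, read with pysam 0.24.0. The distance runs from the nearest edge of the region to the nearest transcript start. Where a region held several peaks of a replicate, at 132 near-gene sites, the highest signal was used. A footprint belonged to a region, or covered a word, where they shared at least 1 base. CpG-rich means a GC content over 50% and a ratio of observed to expected CpG over 0.6. A promoter was open where a region common to all 3 replicates lay within 500 bases of a start, and promoter signals are those of the strongest such peak of each replicate. Words were searched on both strands with 27 patterns, of which CAGATG and 2 looser patterns were added to the planned ones. Repeated sequence was measured as the share of a region's 32-base words found once in the genome.

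Classes were compared within each replicate, and an exact two-sided sign-change test over the 3 differences (smallest p 0.25) was computed. It was planned for signal, width and FDR bases too, but is printed for footprints and words alone, since signal, width and FDR bases rest on the cut density that chose the sites. Footprints rest on cuts of the same libraries, so the printed tests are not independent of that choice either. The code was checked on simulated data. Sites were named as the 15 with the highest mean signal, those at genes of 15 lists (266 genes), the 5 highest and the 5 lowest replicate 2 ratios, the genes with the most sites and the sites nearest to each limit. A few of these sites are not reported here. Members, lists and words were chosen with earlier results of these data known. Alternatives changed the distance measure, the starts, the joining overlap, the peak list, the chain gap, the replicates required, the footprint and word rules and the promoter window.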

Additional observations from a re-analysis of the deposited data

How the results depend on the processing

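Of 279 alternative values 6 changed their direction. A further 15, counts and shares, moved by more than their limits, and the other 258 kept their direction, though not always their size. The signal difference from far sites was 0.066 on the log2 scale with the upper 50% of each list, against 0.34, and the footprint share minus that of starts 1.36 points, against 6.08. The count of near-gene sites was 6847 with the longer lists, 1635 with the upper 50% of each list by signal and between 4365 and 7537 with 1 replicate left out, the last without replicate 1. The footprint share relative to far sites, -0.10 points, turned to 1.91 with the longer lists and lay between 0.0194 and 0.305 with 1 replicate left out. Relative to clustered sites it turned to -0.584 with the longer lists. The median of FDR-passing bases relative to far sites turned to -5.83 bases with the upper 50% of each list. The CTCF share was 21.1% with the longer lists, 0.0231% backwards and 51.5% with 1 position free, and 21.8% to 24.4% with 1 replicate left out. The AGATAA share was 14.2% with the longer lists, 16.0% over the whole region, 4.88% backwards and 29.9% with free flanks, and 12.1% to 15.4% with 1 replicate left out. Nearest genes had open promoters in 71.3% with the longer lists, 62.3% with the upper 50%, and 66.2% to 69.2% with 1 replicate left out. The cause was not tested. The looser words and the removal of repeated sites were chosen after seeing the data. No comparison between groups of libraries was possible because the libraries form 1 group. With 3 replicates no exact test here can pass 0.05, peaks below the callers' thresholds were not seen, and no source used here gives the depth.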

Other observations

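CpG-rich sites were more frequent among the strongest near-gene sites than among the rest. The 571 CpG-rich sites had median signals of 2.31, 2.39 and 2.36 in replicates 1, 2 and 3, and the 3756 others had 1.61, 1.99 and 1.70. CpG-rich sites made up 35.3% of the strongest 10% of sites by mean signal, and between 7.62% and 15.7% of each further 10%. The SP word GGGCGGG was in 29.2% of CpG-rich and 6.28% of other sites, the CTCF pattern in 16.6% and 25.7%, and AGATAA in 4.20% and 14.1%. The CTCF share lay between 21.99% and 28.2% in the 10 groups, with no steady direction along the signal.

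The place of a site in its gene went with the words it held. AGATAA was in 16.7% of the 1855 sites in introns of protein-coding genes and in 10.1% of the 1719 sites between genes, whereas the CTCF pattern was in 23.6% and 25.2%. Sites at 1 to 2 kb from the start held the CTCF pattern in 21.03% and those at 5 to 10 kb in 25.9%. Upstream and downstream sites had almost the same medians, 1.66, 2.02 and 1.80 upstream and 1.66, 2.04 and 1.75 downstream in replicates 1, 2 and 3.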
